A study of Mus musculus with 2 samples.

Results

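The alpha-globin locus of the mouse was examined in RAG cells, a line from a mouse renal adenocarcinoma that serves in the study as one with Pax6 switched off, by chromatin immunoprecipitation of Rad21 followed by hybridisation to tiling arrays (ChIP-chip). The members are the 60 bp probes whose midpoints lie in the tiled stretch of chromosome 11 that holds the globin genes, from 32050029 to 32449823 in mm9, grouped in fixed windows of 1 kb with 3 or more probes. This gave 4025 probes and 365 windows out of 14948 windows on the whole array, while 35 of the 400 possible windows held too few probes. The series has 1 group of 2 arrays, replicates 1 and 2, each made from its own T75 flask of RAG cells, and no second condition is compared. Each array carried ChIP DNA (anti-Rad21, Abcam Ab992) and input DNA, both put through whole-genome amplification and reamplification. The model is limited to 1 tumour line of kidney, and gene expression is not part of the data analysed here, so neither the identity of the cells nor the state of the globin genes was checked.

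Values are log2 ratios of Cy3 over Cy5, centred on the median of all probes of the array that are not controls. This direction is that of the ratio table the authors deposited, and it opposes the labels, which place input DNA in Cy3 and ChIP DNA in Cy5 on both arrays with no dye swap. Which channel held the immunoprecipitated DNA could not be settled from the scanner files, so results are given by dye. A positive value means a higher ratio of Cy3 to Cy5 than that of the typical probe of the array.

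Rad21 is the kleisin subunit of cohesin, a ring-shaped complex that holds sister chromatids together and also extrudes chromatin loops in interphase. Extrusion tends to stop where CTCF is bound, and CTCF recognises an asymmetric motif, so the strand of the motif sets the direction in which a loop can be anchored. In the mouse alpha-globin locus the embryonic zeta gene (Hba-x), the adult alpha genes (Hba-a1 and Hba-a2) and the theta-like genes (Hbq1b and Hbq1a) lie downstream of erythroid enhancers, several of which sit in introns of Nprl3. The Hba-a1 and Hbq1b pair and the Hba-a2 and Hbq1a pair are near-identical copies of an ancestral unit.

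The ratio was raised at a limited number of sharp places. Regions were called where the running median over both arrays, within 400 bp on either side, stayed above a threshold of 0.64. There were 17 such regions in the locus, out of 209 on the array, and they are numbered here from 1 to 17 along the chromosome. The rule sets a height and not an error rate, and in simulated data it also called places where nothing had been planted. In the other direction (threshold -1.11) there were 0 in the locus and 4 on the array. The CTCF core motif (12 positions, at most 1 mismatch, both strands) was searched within 500 bp of each summit, the position of the highest running median, and was found at 12 of the 17. The sequences below show the best match at 5 of the 8 most extreme regions. Of these 8, regions 2, 12 and 17 had no match. Each is 60 bases of mm9 (NCBIM37), written 5′ to 3′ on the strand of the motif, with the 12 bases of the core in capitals.

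region 3, inside Rhbdf1, chr11:32117008-32117067, plus strand: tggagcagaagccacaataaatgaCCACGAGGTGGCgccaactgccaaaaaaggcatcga
region 5, inside Nprl3, chr11:32138633-32138692, minus strand: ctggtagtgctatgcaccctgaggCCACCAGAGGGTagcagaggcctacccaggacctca
region 8, at the Hbq1b start, chr11:32186910-32186969, minus strand: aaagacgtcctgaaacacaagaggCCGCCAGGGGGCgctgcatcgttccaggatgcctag
region 10, at the Hbq1a start, chr11:32200015-32200074, minus strand: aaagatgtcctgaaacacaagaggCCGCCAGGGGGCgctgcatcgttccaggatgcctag
region 11, downstream of Hbq1a, chr11:32221568-32221627, minus strand: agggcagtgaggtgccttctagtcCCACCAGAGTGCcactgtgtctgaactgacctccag

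A further 3 sequences were chosen after the values were seen. Region 1 was taken because it had the only best core of the 17 regions with 0 mismatches. Regions 7 and 9 were taken because each lies between the alpha and the theta-like gene of its globin unit. Whether they are copies of each other was not tested. The sequence given for region 7 lies wholly beyond the end of that region, at 32185948.

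region 1, beyond the 3′ end of Il9r, chr11:32062335-32062394, minus strand: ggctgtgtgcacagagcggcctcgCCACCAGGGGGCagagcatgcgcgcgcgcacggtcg
region 7, between Hba-a1 and Hbq1b, chr11:32186023-32186082, plus strand: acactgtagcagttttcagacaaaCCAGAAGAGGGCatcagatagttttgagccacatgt
region 9, between Hba-a2 and Hbq1a, chr11:32198635-32198694, plus strand: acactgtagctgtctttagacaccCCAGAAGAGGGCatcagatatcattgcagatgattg

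The sequences of regions 8 and 10 shared 59 of 60 bases, and those of regions 7 and 9 shared 44 of 60 with all 12 bases of the core equal. The best core lay on the minus strand for regions 1, 4, 5, 8, 10, 11 and 13 and on the plus strand for regions 3, 6, 7, 9 and 14. For regions 4, 7 and 13 it lay within 500 bp of the summit but outside the called region. Among these best matches each globin unit thus carried a plus-strand core followed by a minus-strand core downstream. The Hba-a2 unit held another core between them, in the window chr11:32199001-32200000, beyond the stretches searched around the summits. The strand of that core is not given here. Of the 14948 windows on the array, which have the same length as the stretch searched around a summit, 7.82% held such a core, and in the locus 15.6% did (57 of 365). A core was found at 70.6% of the locus regions and at 63.0% of the 192 regions elsewhere on the array. A match is a description of the letters only.

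**Figure D1:**
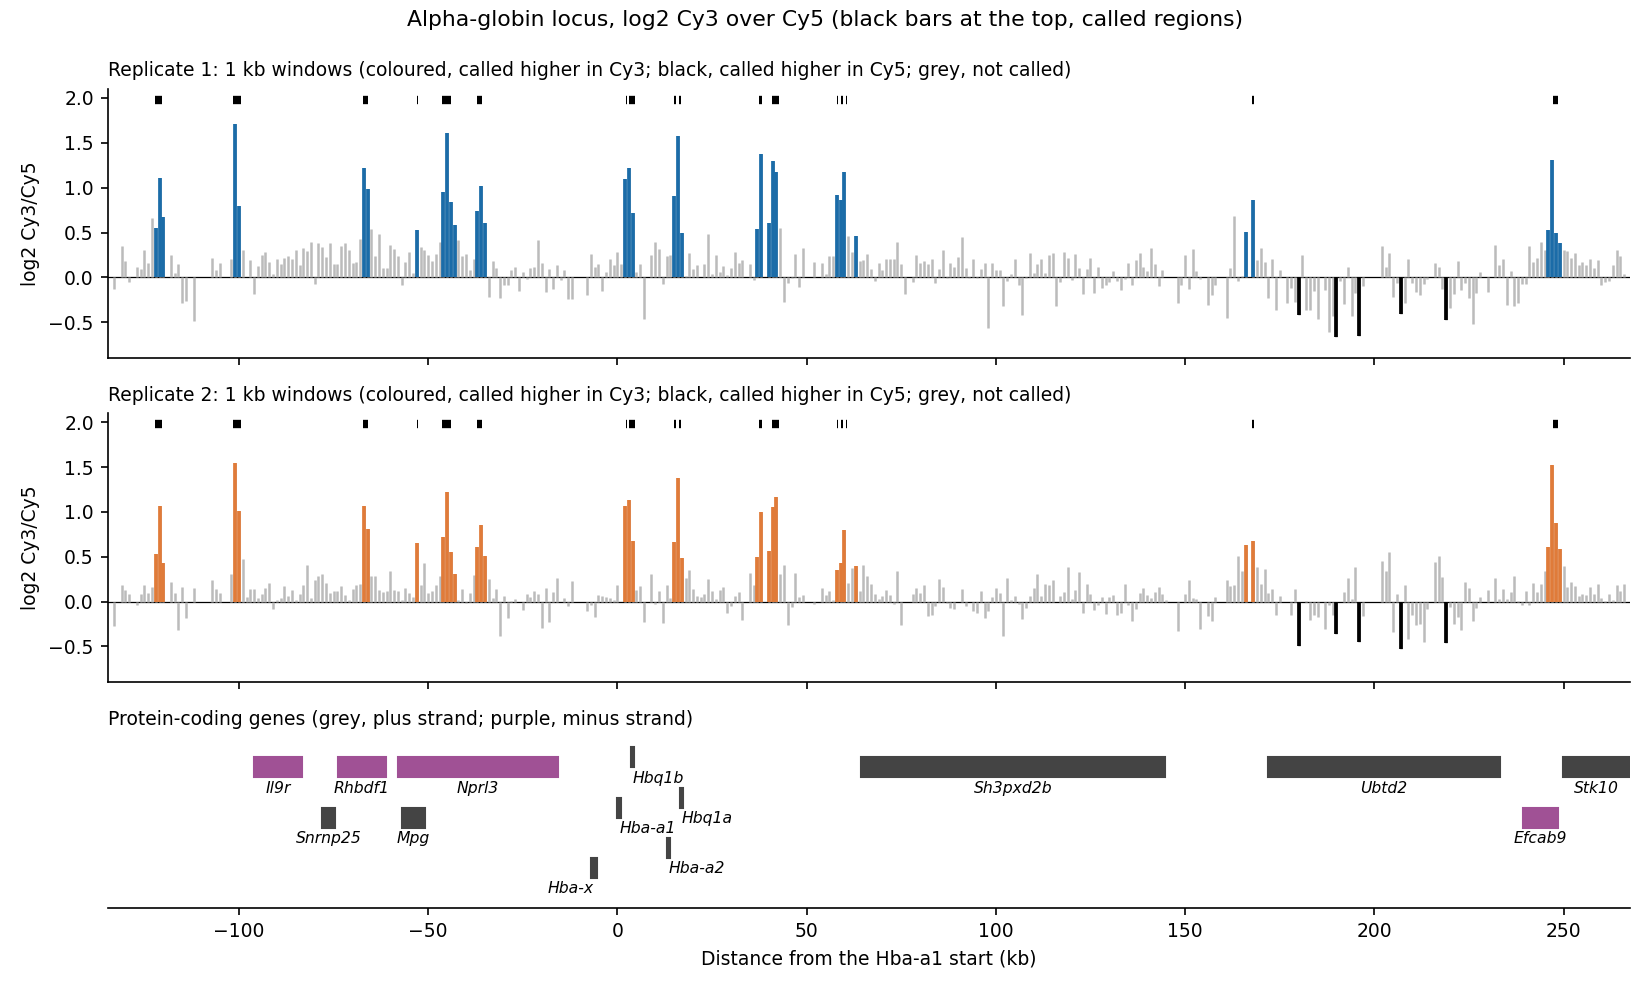
Log2 Cy3/Cy5 of each 1 kb window on replicate 1 (upper) and replicate 2 (middle) against distance from the Hba-a1 start in kb, with the protein-coding genes below and the 17 regions as black bars. Windows called higher in Cy3 are coloured, and they stand in separate groups on both arrays, with none inside Sh3pxd2b. The 5 windows called higher in Cy5 (black) lie in Ubtd2.

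Single windows were then tested against 0 with limma over all windows of the array. In the locus 36 of 365 windows (9.86%) were higher in Cy3 at an adjusted p under 0.05, against a background of 3.61% over the array. Another 5 (1.37%) were higher in Cy5, against 5.1%. All 36 were above 0 on both arrays, which is not independent of the test, and 11 of them passed 1 log2 unit. They ranged from 0.43 to 1.62 with a median of 0.73, while the 324 windows not called ran from -0.37 to 0.44 with a median of 0.10. Of the 36 windows, 30 overlapped a region, so the 2 measures mostly marked the same places, though they rest on the same probes. With windows centred on the mode of each array in place of the median, the calls in the locus were 37 higher in Cy3 and 14 in Cy5, and with the trend on base composition removed they were 34 and 0. The shares over the whole array moved too. They were 3.51% in Cy3 and 16.0% in Cy5 with centring on the mode, and 3.48% and 0.756% with the trend removed, so the count on the Cy5 side moved with these choices far more than the count on the Cy3 side, in the locus and over the array.

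The arrays were close to each other along the locus. Over the 365 windows replicate 1 ran from -0.66 to 1.71 with a median of 0.15, and replicate 2 from -0.53 to 1.54 with a median of 0.10. Pearson r between them was 0.787 and Spearman rho 0.593, with an SD of the difference of 0.215. Over the 331 windows outside the regions r was 0.514. These are correlations across positions that share array, dye and base composition, and carry no p. All but 1 of the 17 regions were above 0 on both arrays, which is not independent of a call made over both arrays. Of the 17, 16 were higher on replicate 1 than on replicate 2. Called on each array alone, 12 of the 17 were found on replicate 1, 13 on replicate 2 and 11 on both. The threshold was then set by each array itself, at 0.92 on replicate 1 and 0.67 on replicate 2. The 2 arrays were thus not judged at 1 common height. Region 16, with running medians of 0.87 and 0.77, was found on replicate 2 only.

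**Figure D2:**
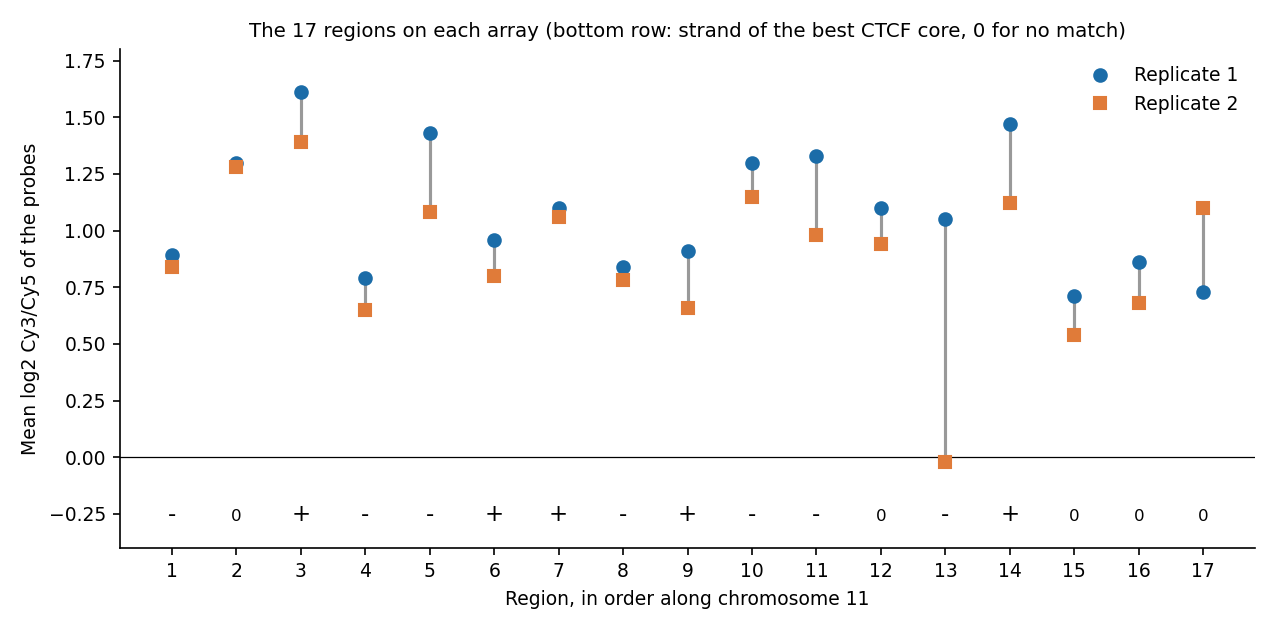
Mean log2 Cy3/Cy5 of the probes of each of the 17 regions (x axis, in order along the chromosome) on replicate 1 (circles) and replicate 2 (squares), with the strand of the best CTCF core below. The grey lines join the 2 arrays, which lie within 0.37 of each other except in region 13, where they were 1.05 and -0.02.

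The regions lay on both sides of the globin genes. At the end before Il9r, region 1 (chr11:32061350-32063068) was intergenic, 37880 bp from the start of Il9r, the gene of the interleukin 9 receptor. Its 26 probes averaged 0.89 on replicate 1 and 0.84 on replicate 2. Region 2 (chr11:32081834-32083925), also intergenic and 17211 bp from the Il9r start, averaged 1.30 and 1.28, and had the second highest running median of the locus (1.83) with no CTCF core within 500 bp of the summit. Its best window, chr11:32082001-32083000, was the highest window of the locus at 1.71 and 1.54 (mean 1.62, SE 0.10, adjusted p = 0.000269, limma). Both regions were called on each array alone.

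Region 3 (chr11:32116228-32117644) had the highest running median of the locus (1.93). It lay inside Rhbdf1, which encodes an inactive rhomboid protein, 5208 bp from its start, with the summit in an annotated exon that is neither coding sequence nor UTR. Its 13 probes averaged 1.61 and 1.39. The median processed intensity of these probes was 5439 in Cy3 and 2037 in Cy5 on replicate 1, and 5647 and 2291 on replicate 2. After the summit the next probe was 522 bp away, and the CTCF core shown above lay 54 bp from the summit. Outside the region the other 176 probes of Rhbdf1 averaged 0.31 and 0.17, and 34 regions elsewhere on the array had a higher running median than region 3.

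Nprl3, which encodes a subunit of the GATOR1 complex that restrains mTORC1, held 3 regions. Region 5 (chr11:32137229-32139409), in an intron 45.2 kb upstream of the Hba-a1 start, was the strongest, with 31 probes at 1.43 and 1.08. Region 6 (chr11:32146400-32147794), in an intron 36.2 kb upstream, averaged 0.96 and 0.80, and its core match lay 1 bp from the summit. Both were found on each array alone. The remaining region in the gene, region 4, was the lowest of the 17 (running median 0.70), overlapped a UTR where Nprl3 and Mpg lie across each other, and was found on neither array alone. Of the 41 windows inside Nprl3, 8 were called higher in Cy3, and the other 33 ran from -0.30 to 0.37 with a median of 0.09. The 502 probes of the gene outside its regions averaged 0.16 and 0.11.

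**Figure D3:**
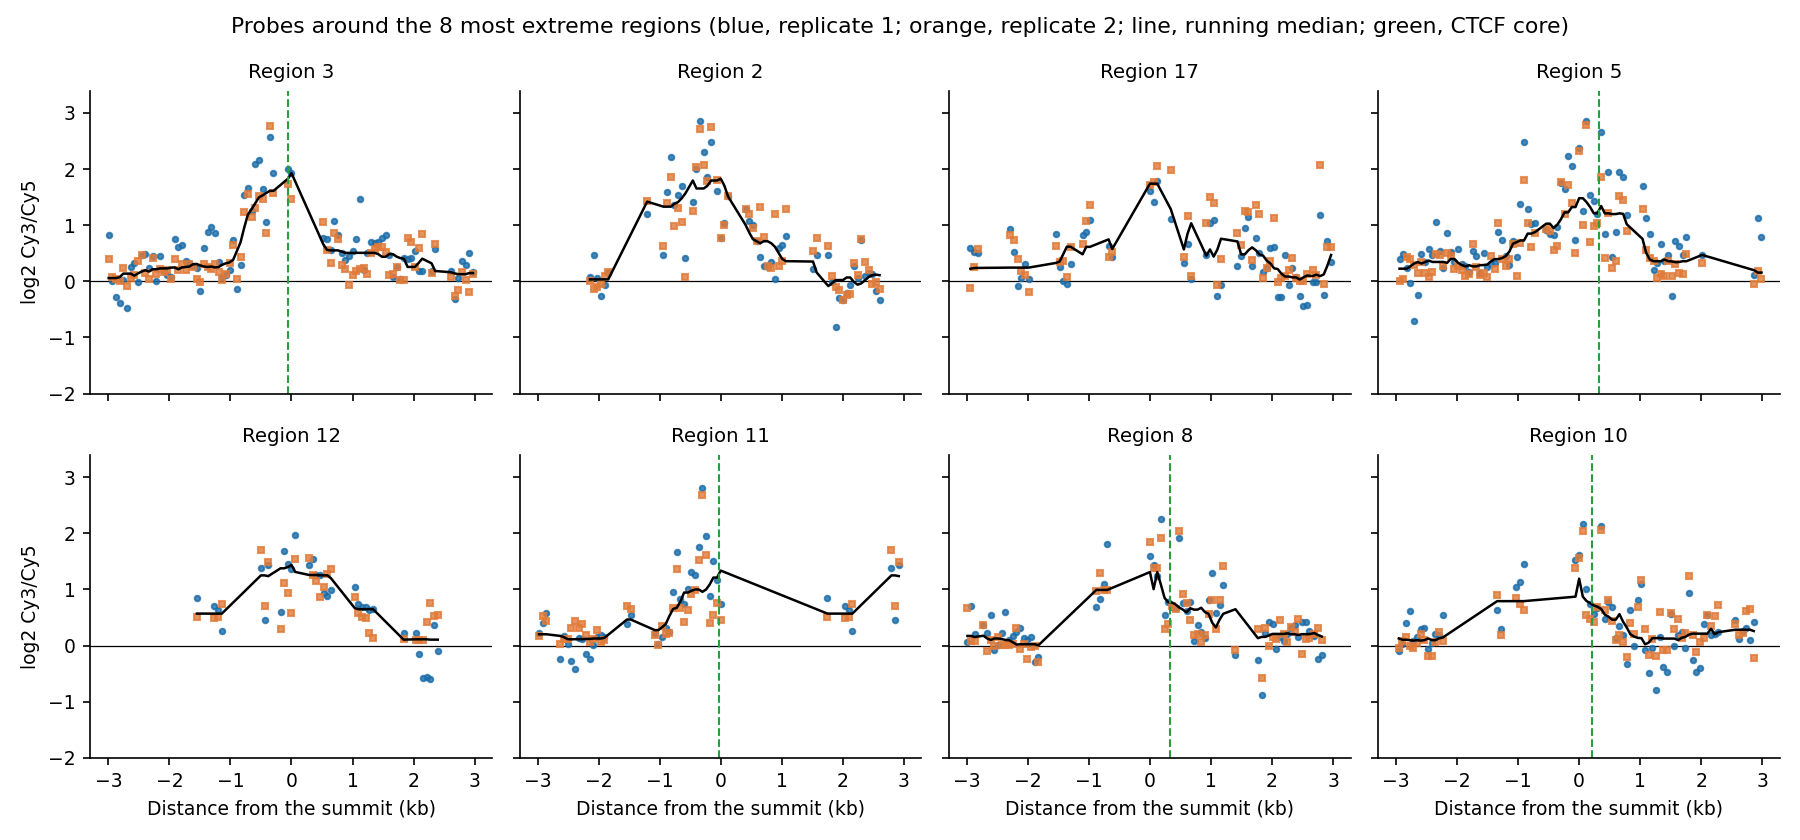
Log2 Cy3/Cy5 of single probes within 3 kb of the summit of the 8 most extreme regions, in order of their running median (blue circles, replicate 1; orange squares, replicate 2; black line, running median of both; green dashed line, best CTCF core). On both arrays the ratio was nearer 0 beyond the regions, which follows in part from ending a region at the threshold. Several summits adjoin gaps with no probes, where no fall can be seen.

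In the globin cluster the 4 regions lay at or beside the theta-like genes, and none overlapped Hba-x, Hba-a1 or Hba-a2. Region 8 (chr11:32186587-32188047) covered the whole of Hbq1b, averaging 0.84 and 0.78 over 22 probes, and region 10 (chr11:32199751-32200230) covered the start of Hbq1a, at 1.30 and 1.15 over 8 probes. Regions 7 (chr11:32185709-32185948) and 9 (chr11:32198468-32198962), between the alpha and the theta-like gene of each unit, averaged 1.10 and 1.06, and 0.91 and 0.66. Region 7 was called on neither array alone, where its 4 probes gave fewer than the 5 values the running median needs.

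These 4 regions need care, since a probe in either unit can capture DNA of the other. In all, 132 of the 4025 probes had a second match in the locus of at least 80% identity over 50 bases or more, and 101 of these lay within the globin genes, 48 of them with all 60 bases equal. In region 10 all 8 probes had a second match, and in region 8 it was 18 of 22. The 4 probes of region 8 without a second match averaged 0.73 and 0.74, close to the 0.86 and 0.79 of the others. The 2 such probes of region 7 averaged 0.96 and 1.14, and the 3 of region 9 averaged 0.94 and 0.83. Probes with 1 match in the locus were thus raised in the Hba-a1 unit at regions 7 and 8 and in the Hba-a2 unit at region 9. These probes also took part in calling the regions, so their height is not independent of the call. For region 10 the copies cannot be told apart. With probes of a second match left out, which was decided once the values were known, regions 7 and 10 were no longer called and the other 15 were.

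**Figure D4:**
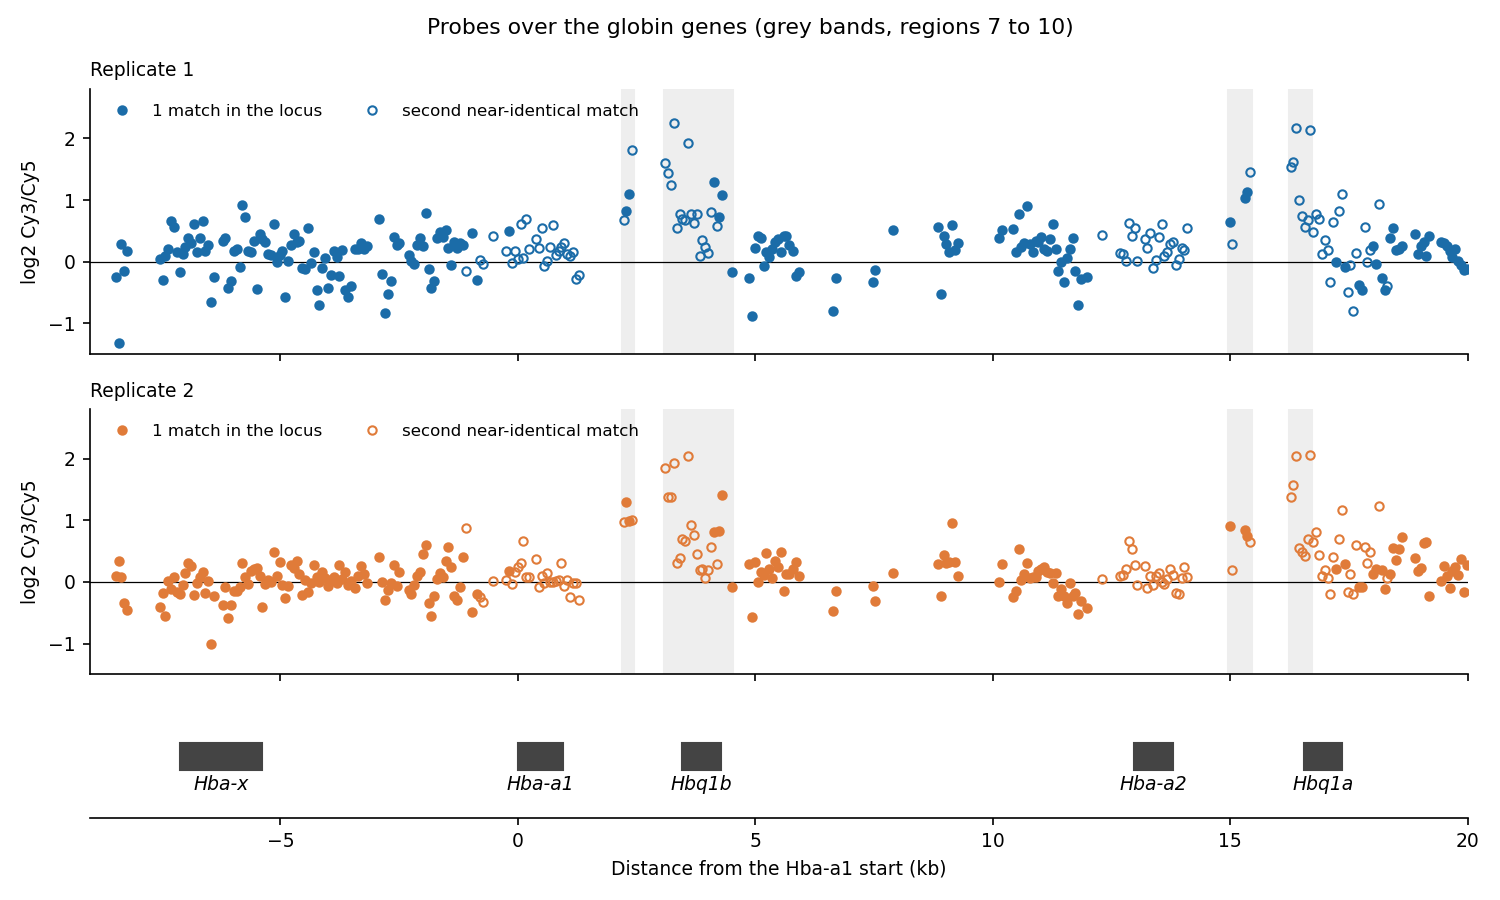
Log2 Cy3/Cy5 of single probes from Hba-x to Hbq1a on replicate 1 (upper) and replicate 2 (middle), against distance from the Hba-a1 start in kb, with filled circles for probes with 1 match in the locus and open circles for those with a second near-identical match. Over the bodies of Hba-x, Hba-a1 and Hba-a2 the probes averaged between -0.06 and 0.29 on the 2 arrays, lower than in regions 7 to 10 (grey bands).

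Downstream of Hbq1a, 5 regions followed before Sh3pxd2b. Region 11 (chr11:32220823-32221662), 38.1 kb from the Hba-a1 start, averaged 1.33 and 0.98, and region 12 (chr11:32224400-32226296), 41.4 kb from it, averaged 1.10 and 0.94. Both were intergenic and were called on each array alone, region 11 with a core 34 bp from its summit and region 12 with none. After the summit of region 11 the next probe was 1749 bp away, so the place of that summit is not closely resolved. The running medians there were 1.51 on replicate 1 and 0.75 on replicate 2. Region 14 (chr11:32242594-32243043), 4807 bp before the start of Sh3pxd2b, averaged 1.47 and 1.12 over 5 probes. Its neighbour region 13 (chr11:32241574-32241753) was at 1.05 on replicate 1 and -0.02 on replicate 2 over 3 probes, so that it rests on replicate 1, although its 1 kb window was at 0.92 and 0.35 (adjusted p = 0.0399, limma). Region 15 beside them was lower, with a running median of 0.70, and was called on neither array alone.

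The distal side was sparse. Between the summits of regions 15 and 16 there was the widest gap, 107.7 kb, against a median of 12.6 kb between neighbours. It included Sh3pxd2b, which encodes a scaffold protein of podosomes, where 0 of 79 windows were called in either direction and values ran from -0.35 to 0.37. Region 16 (chr11:32351087-32351675), 3785 bp from the start of Ubtd2, a gene of a ubiquitin-like domain protein, averaged 0.86 and 0.68. All 5 windows higher in Cy5 lay inside Ubtd2, between -0.46 and -0.55. They had a mean base composition of 35.1% G+C, against 47.1% over all windows of the locus, and the ratio rose with base composition both in the locus (Spearman rho 0.405) and elsewhere (0.614), and with that trend removed 0 windows were higher in Cy5.

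Region 17 (chr11:32430633-32432126) lay over the start of Efcab9, which encodes a calcium-binding protein of the sperm CatSper channel. Its 13 probes averaged 0.73 on replicate 1 and 1.10 on replicate 2, which made it the only region higher on replicate 2, and it was called on replicate 2 alone but not on replicate 1 alone. Its best window, chr11:32430001-32431000, held 4 probes at 1.31 and 1.52 (adjusted p = 0.000429, limma). The best window of each of the 17 regions passed an adjusted p of 0.05, which is not independent of the call.

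Of the 14 protein-coding genes, 4 had a raised ratio within 500 bp of the annotated start (limma over 122 starts, background 8.2%). The theta-like genes were the highest. The start of Hbq1b was at 0.93 and 0.88 (mean 0.91, SE 0.07, adjusted p = 0.0031) and that of Hbq1a at 0.93 and 0.82 (0.87, SE 0.07, adjusted p = 0.0031), but all 15 and all 14 of their probes had a second match. The Efcab9 start was at 0.50 and 0.82 (0.66, SE 0.10, adjusted p = 0.0183). That of Snrnp25, which encodes a protein of the minor spliceosome, was at 0.34 and 0.31 (adjusted p = 0.0472) and did not pass with saturated probes left out or with centring on the mode. Neither Efcab9 nor Snrnp25 passed with loess normalization, with the trend on base composition removed, with repeated probes left out, with deposited values or with probes of a second match left out. In the last of these their values were as before, at adjusted p = 0.0523 and 0.0718.

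The other 10 starts did not pass the test. Hba-a1 was at 0.30 and 0.17 (adjusted p = 0.132) and Hba-a2 at 0.24 and 0.18 (adjusted p = 0.133), again with a second match for 11 of 12 and 12 of 12 probes, and these adult alpha genes, with Il9r, passed when no background was subtracted, a setting in which 22 of the 122 starts on the array were higher in Cy3. Within 1 kb of the start in place of 500 bp, 6 genes of the locus passed, with Sh3pxd2b and Stk10 in addition to the 4. The embryonic Hba-x was at 0.26 and -0.05, so its arrays lay on opposite sides of 0. On the enhancer side, Nprl3 was at 0.08 and 0.15, Rhbdf1 at -0.03 and 0.09, Mpg, a DNA repair glycosylase gene, at -0.09 and 0.02, and Il9r at 0.28 and 0.16. On the far side, Sh3pxd2b was at -0.03 and 0.13, Ubtd2 at -0.23 and 0.09, and Stk10, which encodes a serine/threonine kinase and runs past the tiled stretch, at 0.16 and 0.32.

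**Figure D5:**
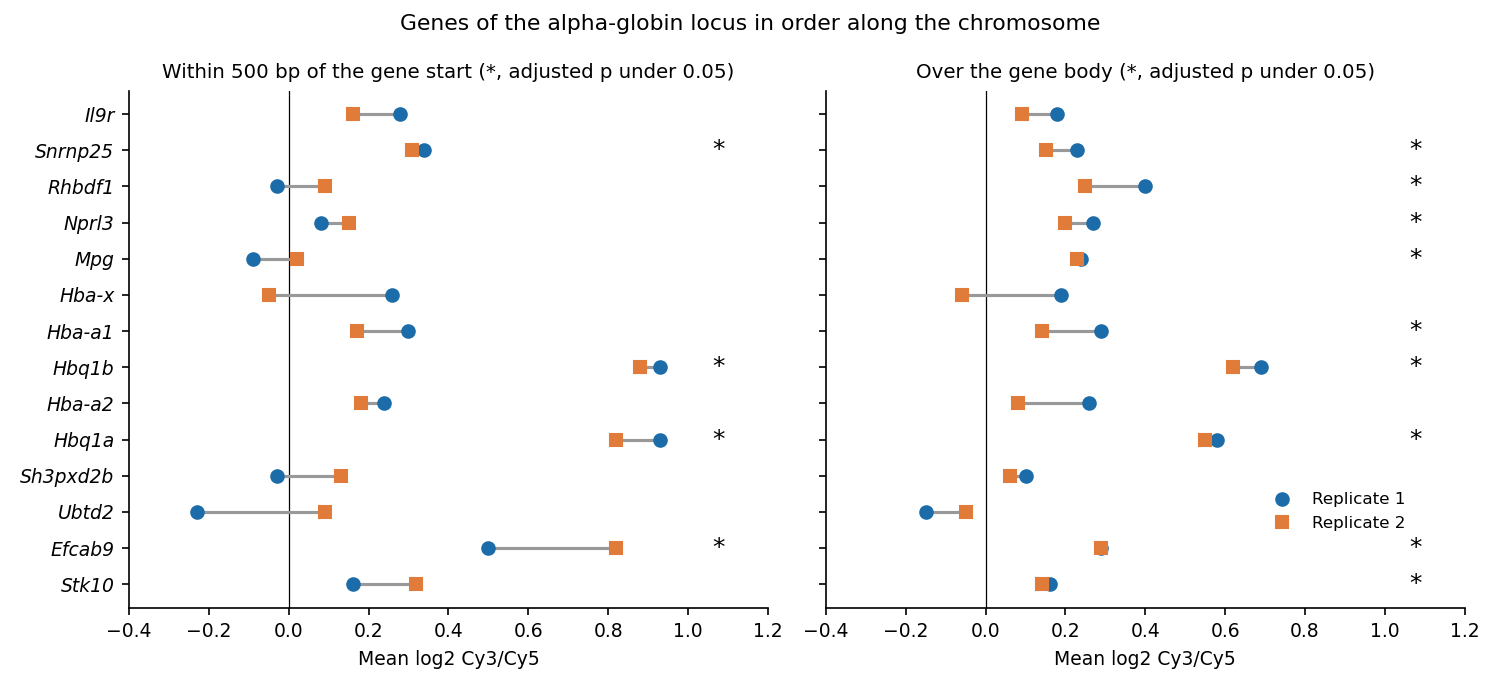
Mean log2 Cy3/Cy5 of the 14 protein-coding genes, in order along the chromosome, within 500 bp of the start (left) and over the gene body (right) on replicate 1 (circles) and replicate 2 (squares). The starts of Hbq1b and Hbq1a stand highest, between 0.82 and 0.93, while those of Rhbdf1, Mpg, Hba-x, Sh3pxd2b and Ubtd2 lie on opposite sides of 0 on the 2 arrays.

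Over the gene bodies 9 of the 14 genes were higher in Cy3 and 0 were higher in Cy5, where the background over 128 genes was 18.0% in each direction. Hbq1b was at 0.69 and 0.62 and Hbq1a at 0.58 and 0.55 (each adjusted p = 0.00177, limma). Rhbdf1 (0.40 and 0.25), Efcab9 (0.29 and 0.29), Mpg (0.24 and 0.23), Nprl3 (0.27 and 0.20), Hba-a1 (0.29 and 0.14), Snrnp25 (0.23 and 0.15) and Stk10 (0.16 and 0.14) also passed. Hba-a2 at 0.26 and 0.08 (adjusted p = 0.0612), Il9r, Hba-x, Sh3pxd2b and Ubtd2 did not. The calls depended on several choices. The mode of the ratios lay 0.11 above the median on replicate 1 and 0.05 above it on replicate 2, and with each array centred there 0 of the 14 passed, as did 0 of the 128 on the array, although Hbq1b was still at 0.58 and 0.57 and Hbq1a at 0.47 and 0.50 (each adjusted p = 0.0529, limma). With probes well above background, and with deposited values, 3 genes passed in each case, Hbq1b, Hbq1a and Efcab9.

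The locus as a whole was raised against the rest of the tiled sequence. The mean of its windows was 0.15 on replicate 1 and 0.14 on replicate 2, against -0.07 and -0.05 over all other windows. Among 11 tiled segments its difference from the rest was the largest, 0.22 and 0.19 (mean 0.21, SE 0.02, adjusted p = 8.59e-06, limma over segments), with the others between -0.13 and 0.15. Most of the other segments also passed an adjusted p of 0.05, in either direction, and again with the trend on base composition removed. The test measures only the spread between 2 arrays, so its p does not by itself set the locus apart. Centring cancels in the difference of a segment from the rest. With windows that overlap any region left out, the difference of the locus was 0.18 and 0.15, so that it did not rest on the regions alone. With the trend on base composition removed it was 0.14 (adjusted p = 0.00113, limma over segments). The regions were also denser, at 42.5 per Mb against 8.0 to 21.0 in the other segments, and covered 4.4% of the locus against 1.43% elsewhere, while the median of their running medians was 1.12 against 1.30 for the regions elsewhere. The same threshold served all segments, although windows outside the regions were already higher in the locus. How far the density depends on that was not tested.

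The windows were also counted by stretch, a division made after the values were seen and given with no test. From the start of the tiled stretch to Snrnp25, 5 of 45 windows were higher in Cy3, and from Snrnp25 to the end of Nprl3 it was 10 of 63. Between Nprl3 and the end of Hbq1a it was 6 of 29, and from there to Sh3pxd2b 9 of 42. In Sh3pxd2b it was 0 of 79, from there to the end of Ubtd2 it was 2 of 74, and beyond Ubtd2 it was 4 of 33. Base composition was 47.3% to 50.7% G+C over the stretches before Sh3pxd2b, 49.2% in that gene, 40.0% from there to the end of Ubtd2 and 48.5% beyond. Its part in these counts was not tested.

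Within the locus the CTCF core and the raised windows overlapped in part. Of the 57 windows that held a core, 13 were higher in Cy3 (22.8%), and of the 308 without one, 23 were (7.47%). The medians were 0.22 and 0.20 on the 2 arrays in windows with a core, and 0.14 and 0.09 in those without. Most cores were therefore in windows that did not pass, and most raised windows held no core of this form. Among windows elsewhere on the array, 35.3% of the 504 higher in Cy3 held a core, close to the 36.1% in the locus.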

How the data were processed

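Rad21 ChIP and input DNA of RAG cells were hybridised to 2 Agilent tiling arrays. The intensities the authors deposited are processed Cy3 and Cy5 signals of Feature Extraction 10.5.1.1, with background subtracted and dyes scaled, beside median spot signals and quality marks. The log2 ratios the authors deposited as a table were smoothed with Ringo, with no parameters given in the sources used here. They carry no probe names, were matched by probe number read as text with the first 3 probes left out, and served as an alternative. Probe positions are in mm9, the build of the genome and gene annotation used.

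The log2 ratio of processed Cy3 over Cy5 intensity was centred on each array's median. Spots of control type and the 27 flagged as outliers were dropped, and repeat spots of the same probe were averaged, leaving 170542 probes. In the locus 97.0% of spots were well above background in both channels of both arrays, and saturated spots numbered 1 and 0 in Cy3 and 67 and 43 in Cy5. The number of arrays limits the precision.

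Means over 1 kb windows, gene starts, gene bodies and tiled segments were tested against 0 with limma 3.58.1 (R 4.3.3; lmFit, eBayes, Benjamini-Hochberg over all features of a kind, two-sided, 0.05). Each array came from its own flask, so p-values rest on the spread between 2 flasks of 1 line. With 2 values per feature, eBayes took this spread largely from all features together and less from the single feature. Regions were called with a rewritten procedure of the Ringo type: a running median over both arrays (400 bp on either side, 5 or more values), a threshold taken from values below the mode reflected about it, 3 or more positions, and positions under 600 bp apart joined. Both steps were checked on simulated data. The region rule recovered the planted regions and also called others. Second matches of probes were found with blastn 2.17.0. Computations used Python 3.11.15. Named were all protein-coding genes of the locus and the 15 most extreme regions, each with its highest window, and sequences at the 8 most extreme. The members and lists were chosen with earlier results of these data known. Mean spot signals were not in the files used, so median signals took their place in the background alternatives. Alternatives covered background, loess, centring, base composition, probe filters, window size and placement, the variance prior, the region rule and each array alone.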

Additional observations from a re-analysis of the deposited data

How the results depend on the processing

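With 1 group of 2 arrays there is no group contrast. No paired analysis was possible because the 2 arrays form 1 group. Precision is limited to 2 arrays of 1 line with no dye swap, so an effect of the dyes cannot be told apart from the contents of the channels.

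Windows higher in Cy3 (36) stayed between 29 and 50 with 1 kb windows and numbered 34 with 2 kb and 60 with 500 bp windows, of which there are more. Of the 36, 24 passed under all probe-level alternatives. Windows higher in Cy5 (5) numbered 3 with normexp, 1 with loess, 2 with probes well above background, 14 with centring on the mode, 0 with the base composition trend removed, 0 with deposited values, 2 with windows moved by 500 bp and 0 with a trended robust prior (44 in Cy3). Deposited values gave 29 windows in Cy3. Regions higher in Cy3 (17) numbered 11 with a stricter null quantile, 12 to 15 on 1 array alone and 15 to 25 otherwise, apart from 12 with at least 6 positions. Regions 1, 2, 3, 5, 6, 8, 11 and 12 were overlapped by a call under each of the 15 settings for which this was counted. Regions higher in Cy5 (0) numbered 10 with a looser null quantile and 0 otherwise. Starts higher in Cy3 (4) numbered 7 with no background correction, 2 with loess, 2 with the base composition trend removed, 2 with repeated probes left out, 1 (Hbq1b) with deposited values and 0 with probes of a second match left out, an alternative chosen after seeing the data in which the Hbq1 starts had no probes left and Efcab9 and Snrnp25 no longer passed with their values as before. Gene bodies higher in Cy3 (9) numbered 3 with probes well above background, 0 with centring on the mode and 3 with deposited values. The causes of these changes were not tested. The locus minus the rest (0.21) stayed between 0.14 and 0.22 and past the threshold wherever it was tested, with 0.19 to 0.22 on single arrays. Of 178 values of region means, 149 moved by less than the spread between arrays and 28 by more, 22 of these downwards. Region 13 without replicate 1 fell below 0, with -0.02 to 1.05 on single arrays. The 178 include means on 1 array alone, where the shift cannot pass that spread apart from rounding. The spread ran from 0.01 in region 2 to 0.75 in region 13, so these counts do not measure stability.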
